A study of Homo sapiens with 3 samples.

Results

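The genes examined here were 10 genes of the NF-kB system, 4 that encode Rel factors (NFKB1, NFKB2, RELA and RELB) and 6 that encode proteins acting back on the pathway (NFKBIA, NFKBIE, TNFAIP3, BIRC3, TRAF1 and CYLD), out of 19689 protein-coding genes. They were chosen by name and not by a measured value, though with earlier results of these data known. For each gene all ChIP-seq peaks within 1 kb of a transcription start site (TSS) of a protein-coding transcript, within the gene body and within 50 kb on either side were collected. Chromatin immunoprecipitation sequencing had been done in HuCCT1, a cholangiocarcinoma (CCA, bile duct cancer) cell line, with antibodies against SBNO1 (Strawberry Notch 1, a helicase-like nuclear protein), against TAF4 (part of TFIID, the general factor that recognises core promoters) and with control IgG. No treatment or stimulus is given in the labels, so the state of NF-kB signalling in these cells is unknown. There was 1 library per antibody, made from the pooled immunoprecipitates of several biological replicates. The comparison of both proteins over the same genes addresses the question, raised by the study, of whether SBNO1 and TAF4 sit at the same places on chromatin.

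NF-kB is a family of dimeric transcription factors that share the Rel DNA-binding domain. In resting cells the dimers are held in the cytoplasm by I-kappa-B proteins, and inflammatory receptors release them through the I-kappa-B kinases. Many of the genes that NF-kB turns on encode its own subunits or its inhibitors, so the system carries feedback on itself, and its lasting activity is known from inflammation-driven cancers, those of the bile ducts among them.

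The SBNO1 list held 16147 peaks, the TAF4 list 12763 and the IgG list 1598, with median widths of 397 bp, 400 bp and 383 bp. Of these, 4791 SBNO1 and 6042 TAF4 peaks lay within 1 kb of a TSS. The study reports far fewer bound promoters for both proteins than these lists give, and places a larger share of the peaks close to a TSS. Its counts are therefore not those of the full lists used here, and whether they came from a filtered part of them is not given. How strict the calls were is not given in the sources used here either, so a bound promoter here means only one with a listed peak. Peak lists hold no read numbers, so the depth of each library is unknown and none of the differences below could be tested; intervals are exact 95% Clopper-Pearson intervals and cover counting error only. The deposited score is a whole number capped at 1000, and the cap was reached by 34.6% of peaks for SBNO1, 43.0% for TAF4 and 39.4% for IgG. Below the cap, the score times the width over 1000, called the score-width product from here on, never fell under 200 in any of the lists after rounding, and all 795 SBNO1, 674 TAF4 and 234 IgG peaks narrower than 200 bp stood at the cap. A high score of a narrow peak is therefore built into the list, and the product shows better how far a peak lay above the limit for being listed. Of 5 biliary marker genes, 3 had an SBNO1 (interval 14.7% to 94.7%) and 5 a TAF4 promoter peak (from 47.8%). Of all genes 25.7% and 31.9% had one. At EPCAM the SBNO1 peak (47368925-47369294) and the TAF4 peak (47345043-47345232) lay apart. The counts were 0 and 1 for 5 hepatocyte markers and 0 and 0 for 5 leukocyte markers. With 0 of 5 the interval reached 52.2%, so the SBNO1 counts cannot be told apart from the share of all genes.

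Promoter peaks were compared first. SBNO1 peaks lay within 1 kb of a TSS of 6 of the 10 genes (60.0%, interval 26.2% to 87.8%), where 25.7% of all protein-coding genes had one. TAF4 peaks were found at 7 of the 10 (70.0%, 34.8% to 93.3%), against 31.9% of all genes. The genes with an SBNO1 peak were NFKB2, RELA, RELB, NFKBIA, NFKBIE and BIRC3, and all 6 also had a TAF4 peak, a combination found in 22.6% of all genes. Among all 5057 genes with an SBNO1 promoter peak 88.0% also had a TAF4 one. CYLD was the 1 gene with TAF4 without SBNO1 (9.29% of all genes), no gene had SBNO1 without TAF4 (3.08% of all genes), and NFKB1, TNFAIP3 and TRAF1 had neither (65.0% of all genes). A peak of either protein was thus present at 7 of the 10 (34.8% to 93.3%), against 35.0% of all genes. The IgG list had a peak at 0 of the 10 promoters (interval up to 30.8%), against 1.41% of all genes. The intervals for SBNO1, for TAF4 and for both together began above the share of all genes, the one for either protein began below it and that for IgG included it. For SBNO1 the margin was narrow, 26.2% against 25.7%. This margin was lost with TSS of all transcripts (27.1% of all genes) and with a distance of 3 kb (28.4%). With peaks at or above the median score, both proteins were found at 3 of the 10 genes. The interval for 3 of 10 begins at 6.67%, below the 9.21% of all genes. For the other counts under score filters no interval was computed. The share of all genes includes genes that are silent in this cell type, which were not separated here.

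**Figure D1:**
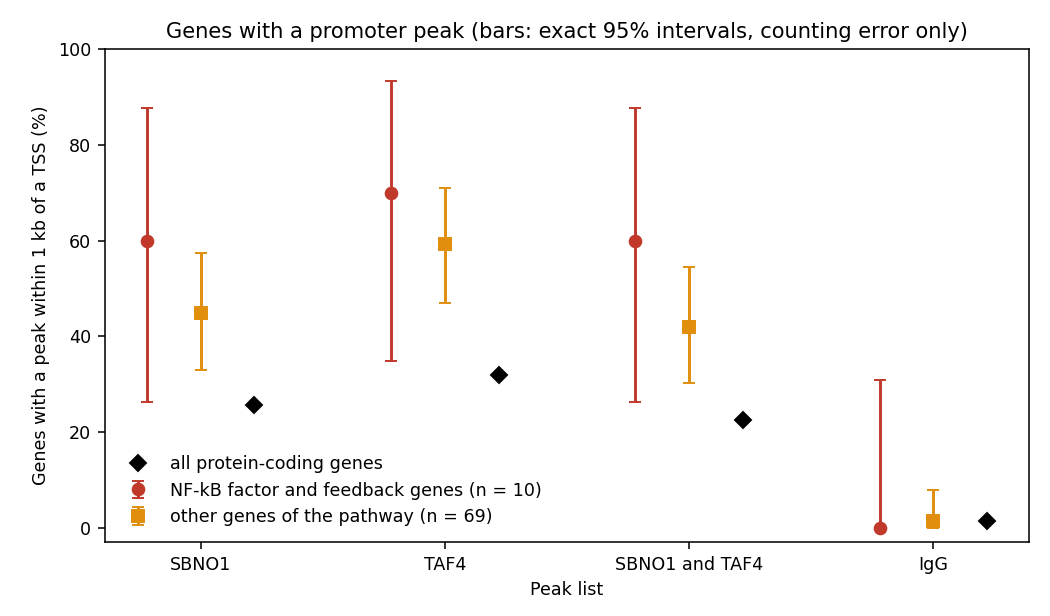
Share of genes (percent, y axis) with a peak within 1 kb of a TSS in each peak list (x axis), for the 10 NF-kB factor and feedback genes (circles), 69 other genes of the pathway (squares) and all 19689 protein-coding genes (diamonds), with exact 95% intervals as bars. The 10 genes lie at 60.0% for SBNO1, 70.0% for TAF4 and 0.0% for IgG, against 25.7%, 31.9% and 1.41% of all genes.

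**Figure D2:**
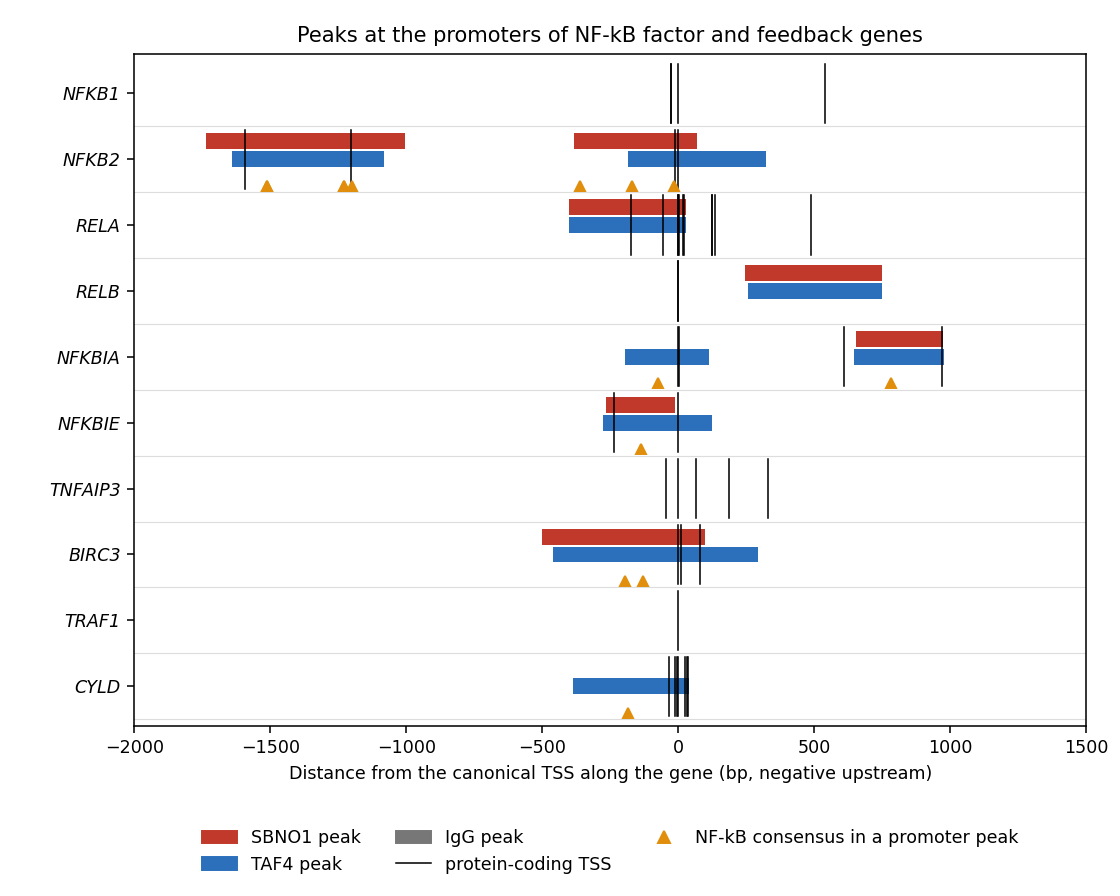
Promoter peaks of the 10 genes drawn to scale by distance from the canonical TSS (x axis, bp, negative upstream), with SBNO1 peaks in red, TAF4 peaks in blue, protein-coding TSS as vertical lines and NF-kB consensus matches as triangles. NFKB2 has a pair of bound promoters, the NFKBIA TSS is covered by TAF4 alone, the RELB peaks start 246 bp and 255 bp downstream of the TSS, and no IgG peak falls in the plot.

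Among the Rel factors, NFKB2, which encodes the precursor of the non-canonical pathway, was bound at separate upstream and downstream promoters. The gene lies on chromosome 10 at 102394110-102402524 of GRCh38, on the plus strand, and has 4 protein-coding TSS in 2 clusters. At the upstream promoter the SBNO1 peak (102393967-102394701) was 735 bp wide and scored 542, and that of TAF4 (102394062-102394624) was 563 bp wide and scored 1000. The TAF4 peak lay wholly inside the SBNO1 peak and the centres differed by 9 bp. Only 9.41% of SBNO1 peaks had a lower score than this one, but 92.1% were narrower, and its score-width product of 398.4 exceeded that of 77.7% of the SBNO1 peaks below the cap. At the downstream promoter, which holds the canonical TSS at 102395705, the SBNO1 peak (102395321-102395772, 452 bp) scored 1000 and the TAF4 one (102395519-102396028, 510 bp) 917. These shared 254 bp, and the SBNO1 centre lay 159 bp upstream of the TSS while the TAF4 centre lay 68 bp downstream of it. Having 2 or more promoter peaks was seen in 3.07% of all genes for SBNO1 and in 4.23% for TAF4.

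Both NFKB2 promoters held matches to the consensus of the NF-kB binding site, searched on both strands, at 6 places that do not overlap each other. The sequences that follow, in genome build GRCh38 and read 5′ to 3′ on the strand given, show the matches in capitals next to the TSS at 102394503 and over the 200 bp that end at the TSS at 102395693. They are shown because NFKB2 had more matches than any other of the 10 genes, and because the last match of the downstream promoter ends on the TSS itself.
NFKB2 upstream promoter, chr10:102394461-102394490, plus strand: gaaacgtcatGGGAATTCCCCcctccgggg
NFKB2 upstream promoter, over the start, chr10:102394490-102394519, plus strand: gggccgagaaGGGGCTTTCCcggccctgag
NFKB2 downstream promoter, chr10:102395494-102395693, plus strand: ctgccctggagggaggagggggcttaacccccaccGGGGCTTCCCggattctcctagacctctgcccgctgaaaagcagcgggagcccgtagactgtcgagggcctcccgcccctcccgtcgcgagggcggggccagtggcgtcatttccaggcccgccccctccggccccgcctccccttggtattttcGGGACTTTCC

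RELA encodes the main activating subunit of the canonical pathway and lies on chromosome 11 at 65653599-65663090, on the minus strand, with 12 protein-coding TSS. Its promoter peaks were nearly the same interval in both lists, 65662889-65663320 for SBNO1 and 65662888-65663320 for TAF4. They shared 432 bp, had the same centre 188 bp upstream of the canonical TSS and each covered 7 of the 12 TSS. The score was 970 for SBNO1 and 701 for TAF4, with products of 419.0 and 303.5. No NF-kB match was found in either peak. The RELA window held 6 SBNO1 peaks, 5 TAF4 peaks and 1 IgG peak, and 94.3% of all genes had fewer SBNO1 peaks in their windows. Of these, 4 pairs of SBNO1 and TAF4 peaks lay at the promoters of the neighbours MAP3K11, PCNX3, SIPA1 and KAT5, 24988 to 49413 bp from the canonical TSS. The pair at MAP3K11, SBNO1 at 65614049-65614423 (score 562) and TAF4 at 65614152-65614514 (score 1000), held an NF-kB match in both peaks. The pair between MAP3K11 and PCNX3, with a score of 1000 in both lists, overlapped the IgG peak (65615236-65615800, score 698).

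The remaining SBNO1 peak of the RELA window (65652548-65653146, 599 bp, score 747) lay 10.1 kb downstream of the canonical TSS, beyond the 3′ end of the gene, and overlapped no TAF4 or IgG peak. Its product of 447.5 exceeded that of 84.4% of SBNO1 peaks below the cap, so this was not a peak near the listing limit. It is shown because it was an SBNO1 peak away from any annotated protein-coding TSS that held an NF-kB match, given in capitals on the strand of RELA.
RELA, SBNO1 peak beyond the 3′ end, chr11:65652828-65653027, minus strand: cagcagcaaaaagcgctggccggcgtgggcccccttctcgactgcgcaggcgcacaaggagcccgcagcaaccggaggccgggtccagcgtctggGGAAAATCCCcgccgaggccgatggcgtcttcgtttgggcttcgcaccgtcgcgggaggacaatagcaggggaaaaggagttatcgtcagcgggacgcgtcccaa

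RELB, the transactivating partner of the NFKB2 product, lies on chromosome 19 at 45001461-45038192, on the plus strand. Its peaks differed in place from those of the other bound genes, since they covered no TSS. The SBNO1 peak (45001710-45002212, 503 bp, score 882) and the TAF4 peak (45001719-45002213, 495 bp, score 1000) shared 494 bp in an intron, with centres 497 bp and 502 bp downstream of the canonical TSS. They held no NF-kB match but 2 matches each to the AP-1 consensus TGANTCA, the binding sequence of Fos and Jun dimers. In the flanks, a peak pair lay at CLPTM1 46.3 kb upstream and a TAF4 peak of score 1000 at GEMIN7 and MARK4 77.8 kb downstream of the TSS.

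NFKB1, which encodes the precursor of the most common DNA-binding partner of RELA, stood apart from the other Rel genes. It lies on chromosome 4 at 102501330-102617302, on the plus strand, and neither its promoter nor its gene body of 115973 bp held a peak of any list. The nearest TAF4 peak was 323 kb from a TSS. A single SBNO1 peak (102627696-102628266, 571 bp) lay beyond the 3′ end, 127 kb downstream of the canonical TSS. It had a score of 534, a product of 304.9 and 2 AP-1 matches. Among the 10 other protein-coding genes whose gene body reached within 1 Mb, 20.0% had an SBNO1 and 30.0% a TAF4 promoter peak, so bound promoters were present nearby.

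The inhibitors of the Rel dimers were both bound, but in different ways. NFKBIA encodes the I-kappa-B protein that is resynthesised first after NF-kB activation and lies on chromosome 14 at 35401079-35404749, on the minus strand. At its main TSS a TAF4 peak (35404637-35404945, 309 bp, score 1000) was centred 42 bp upstream and covered the TSS at 35404746 and 35404749, with no SBNO1 peak overlapping it. A second TAF4 peak (35403772-35404102, 331 bp, score 931) and the 1 SBNO1 peak (35403775-35404096, 322 bp, score 775) lay inside the gene in an untranslated exon, over an alternative TSS at 35403779. Their centres were 812 bp and 814 bp downstream of the main TSS, and the whole SBNO1 peak of 322 bp was shared. The product of this SBNO1 peak, 249.6, exceeded that of 31.8% of SBNO1 peaks below the cap. The window of NFKBIA, which spans 0.104 Mb, held no other peak.

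NF-kB matches were present at both places, 173 bp downstream of the TSS at 35404140 in the internal peak and 76 bp upstream of the main TSS in the TAF4 peak. They are shown in capitals on the strand of the gene, so that the sequence covered by both proteins can be set beside the sequence covered by TAF4 alone.
NFKBIA, internal peak of both lists, chr14:35403953-35403982, minus strand: ggaggggggcGGAAAGTCCCtgggcgcctg
NFKBIA, upstream TAF4 peak, chr14:35404750-35404945, minus strand: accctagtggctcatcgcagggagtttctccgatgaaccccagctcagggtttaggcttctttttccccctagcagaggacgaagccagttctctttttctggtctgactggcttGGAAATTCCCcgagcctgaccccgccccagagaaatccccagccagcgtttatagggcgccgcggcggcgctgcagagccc

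NFKBIE, a further I-kappa-B gene, lies on chromosome 6 at 44258166-44265788, on the minus strand. Its SBNO1 peak (44265565-44265817, 253 bp, score 794) lay wholly inside the TAF4 peak (44265427-44265830, 404 bp, score 734), with centres 140 bp and 77 bp upstream of the canonical TSS, in a coding exon of the longer transcript. The SBNO1 peak was the one closest to the listing limit among the promoter peaks of the 10 genes. Its product was 200.9, and 0.644% of SBNO1 peaks below the cap had a smaller one. The TAF4 product of 296.5 exceeded that of 51.0%. The flank held an SBNO1 peak and a pair of TAF4 peaks at HSP90AB1, a chaperone gene 18.4 to 19.3 kb away, and a further TAF4 peak of score 1000 at 27.9 kb (44237529-44237779) that lay away from any TSS and held 1 AP-1 match. The upstream TAF4 peak at HSP90AB1 (44246036-44246541, score 679) held an NF-kB match. The match in the promoter peaks of NFKBIE is shown in capitals, 98 bp downstream of the TSS at 44265788.
NFKBIE, peak of both lists, chr6:44265594-44265763, minus strand: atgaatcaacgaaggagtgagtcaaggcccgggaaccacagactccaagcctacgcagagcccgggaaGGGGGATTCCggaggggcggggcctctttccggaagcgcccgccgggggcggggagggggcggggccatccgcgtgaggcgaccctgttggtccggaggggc

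TNFAIP3 and CYLD encode deubiquitinases that take signalling ubiquitin chains off the receptor complexes. TNFAIP3 lies on chromosome 6 at 137867214-137883314, on the plus strand, and was the 1 gene of the 10 with no peak of any list in its gene body or within 50 kb, as in 30.2% of all genes. The nearest SBNO1 peak (137697571-137697867, score 764) lay 169 kb upstream of a TSS and the nearest TAF4 peak 950 kb downstream. The region as a whole was sparse. None of the 14 other protein-coding genes within 1 Mb had a promoter peak of SBNO1 or TAF4, although 4 SBNO1 peaks lay in that span, and within 5 Mb 10.3% of 39 genes had an SBNO1 and 12.8% a TAF4 promoter peak, against 20.3% and 28.1% of all genes on chromosome 6. Whether the sparse region and the lack of a peak at TNFAIP3 are connected was not tested.

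CYLD lies on chromosome 16 at 50742050-50801935, on the plus strand. A TAF4 peak (50741698-50742126, 429 bp, score 660) was centred 174 bp upstream of the canonical TSS and covered 7 of its 10 TSS. Of the TAF4 list, 18.3% of peaks scored lower, and the product of 283.1 exceeded that of 46.4% of TAF4 peaks below the cap. The nearest SBNO1 peak was 345 kb away. SBNO1 peaks were few on the whole chromosome, at 2.01 per Mb, and 8.19% of genes on chromosome 16 had an SBNO1 promoter peak against 18.9% with a TAF4 one. Within 5 Mb of CYLD these shares were 2.38% and 14.3% of 42 genes. The part of this chromosome-wide difference in the pattern at CYLD was not tested.

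The promoters of NFKB1 and TNFAIP3 carried NF-kB matches although they had no peak, and CYLD carried one under TAF4. They are printed to set bound and unbound matches side by side. The CYLD stretch is from its TAF4 peak in GRCh38, and the other 2 are the parts upstream of the first TSS of the promoters in the RefSeq promoter table (GRCh38.p14), with matches in capitals. The match in NFKB1 lay 49 bp before the RefSeq start and those in TNFAIP3 67 bp and 55 bp before it. The TNFAIP3 promoter, 300 bp in the table, had a GC content of 73.7% against a median of 63.0% over 15307 promoters. It held 6 matches to the KLF/SP consensus GGGCGG, which was present in 59.2% of these promoters. NF-kB matches occurred in 6.36% of these promoters. A match is a description of the sequence and not a bound site.
CYLD, promoter TAF4 peak, chr16:50741802-50742001, plus strand: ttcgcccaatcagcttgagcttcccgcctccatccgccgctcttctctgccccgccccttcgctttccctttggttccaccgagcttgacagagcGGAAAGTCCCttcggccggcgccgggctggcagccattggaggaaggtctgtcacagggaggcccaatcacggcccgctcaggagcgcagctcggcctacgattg
NFKB1, promoter without a peak, chr4:102501109-102501329, plus strand: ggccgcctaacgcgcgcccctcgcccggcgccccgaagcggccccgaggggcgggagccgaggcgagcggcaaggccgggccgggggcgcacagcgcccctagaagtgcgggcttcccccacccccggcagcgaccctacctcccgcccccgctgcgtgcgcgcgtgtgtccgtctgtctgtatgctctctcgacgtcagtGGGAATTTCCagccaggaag
TNFAIP3, promoter without a peak, chr6:137867009-137867213, plus strand: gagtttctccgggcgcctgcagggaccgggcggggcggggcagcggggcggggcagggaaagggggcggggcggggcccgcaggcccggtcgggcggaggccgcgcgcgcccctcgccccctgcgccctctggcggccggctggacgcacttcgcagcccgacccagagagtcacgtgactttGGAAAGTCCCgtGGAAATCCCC

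BIRC3 and TRAF1 encode a ubiquitin ligase and an adaptor that meet at the TNF receptor complexes. BIRC3 lies on chromosome 11 at 102317484-102339403, on the plus strand, and had wide peaks at the cap in both lists, SBNO1 at 102316982-102317581 (600 bp, score 1000) and TAF4 at 102317023-102317775 (753 bp, score 1000). They shared 559 bp and covered all 3 TSS, with centres 203 bp and 85 bp upstream. Among the promoter peaks of the 10 genes, the NFKB2 downstream promoter and BIRC3 were the places where SBNO1 reached the cap. Together with RELA, BIRC3 also had the fullest window, with 6 SBNO1, 4 TAF4 and 1 IgG peaks. At least 6 SBNO1 peaks were found in 5.75% of all gene windows.

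Unlike at RELA, 3 of the 5 flanking SBNO1 peaks of BIRC3 were away from other promoters. A pair lay 48.8 kb upstream, SBNO1 at 102268389-102268943 (score 964) and TAF4 at 102268408-102268966 (score 745), with 536 bp shared. A second pair lay 11.1 kb upstream, SBNO1 at 102306122-102306600 (score 968) and TAF4 at 102306158-102306577 (score 911), and overlapped an IgG peak (102306073-102306587, score 441, product 227.1). Within its own list the IgG product exceeded that of 31.6% of peaks below the cap, while those of SBNO1 (463.7) and TAF4 (382.6) exceeded 86.0% and 73.1% in theirs. Downstream of the gene, SBNO1 had a peak at 24.6 kb (102341871-102342225, score 692) and one at 28.6 kb (102345837-102346285, score 533), neither overlapping TAF4. The latter was 929 bp from a TSS of BIRC2, the neighbouring ligase gene, so within 1 kb it also counted as a BIRC2 promoter peak. The BIRC2 promoter had a further SBNO1 peak (score 909) and a TAF4 peak (score 457).

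The BIRC3 promoter peak and the SBNO1 peak at 28.6 kb each held 2 NF-kB matches, shown in capitals. The latter stretch is shown because it had as many matches as the promoter without a TAF4 peak, with a product of 239.3 that exceeded that of 26.7% of SBNO1 peaks below the cap.
BIRC3, promoter peak of both lists, chr11:102317222-102317421, plus strand: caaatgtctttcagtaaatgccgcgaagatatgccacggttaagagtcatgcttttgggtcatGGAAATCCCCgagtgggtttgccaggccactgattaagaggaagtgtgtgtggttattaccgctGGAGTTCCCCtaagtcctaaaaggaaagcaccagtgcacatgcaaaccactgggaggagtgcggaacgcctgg
BIRC3, SBNO1 peak downstream of the gene, chr11:102346015-102346214, plus strand: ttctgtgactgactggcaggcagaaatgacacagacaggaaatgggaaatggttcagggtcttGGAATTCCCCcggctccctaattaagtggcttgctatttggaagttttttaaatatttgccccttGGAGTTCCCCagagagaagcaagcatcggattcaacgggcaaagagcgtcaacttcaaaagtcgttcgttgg

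TRAF1 lies on chromosome 9 at 120902393-120929173, on the minus strand, and had no peak at its TSS or in its gene body. All 3 peaks of its window were SBNO1 peaks in introns of the downstream neighbour PHF19, 33.9, 50.2 and 53.0 kb from the canonical TSS of TRAF1, and none overlapped TAF4, whose nearest peak was 71.3 kb from a TSS. They were at 120892836-120893031 (196 bp, score 1000), 120876469-120876817 (349 bp, score 597) and 120873646-120873862 (217 bp, score 966). Despite scores up to the cap, the products of the peaks below the cap were 208.4 and 209.6, close to the limit of 200, and the third peak was narrower than 200 bp. Each held an AP-1 match. The peak of score 597 lay within 1 kb of a TSS of PHF19.

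**Figure D3:**
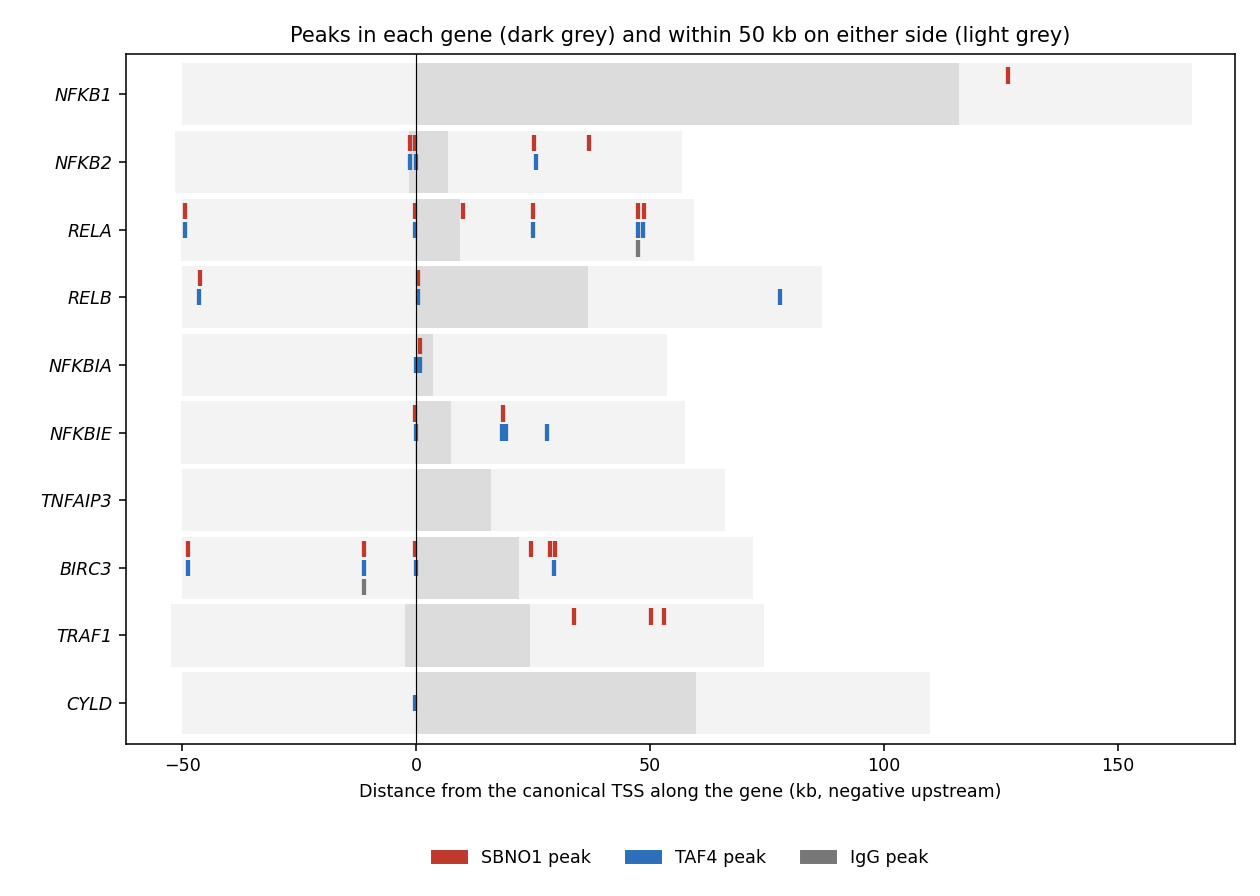
All peaks in the gene bodies (dark grey) and 50 kb flanks (light grey) of the 10 genes, by distance of the peak centre from the canonical TSS (x axis, kb, negative upstream), with SBNO1 in red, TAF4 in blue and IgG in grey. RELA and BIRC3 have 6 SBNO1 peaks each, TRAF1 has 3 SBNO1 peaks without TAF4, and TNFAIP3 has no peak.

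Next, all 10 windows were counted. They spanned 1.31 Mb in all and held 25 SBNO1, 22 TAF4 and 2 IgG peaks. This was 19.1, 16.8 and 1.53 peaks per Mb, against 7.03, 5.81 and 0.389 over the windows of all protein-coding genes. The higher density was thus also present in IgG, though it rested there on 2 peaks, and it followed the neighbours as well as the genes themselves. Of the SBNO1 peaks 7 were at promoters of the 10 genes, 11 at promoters of other genes and 7 at neither, and of the TAF4 peaks 9, 10 and 3. At least 1 SBNO1 peak was present in 8 windows (62.3% of all genes), at least 1 TAF4 peak in 7 (61.7% of all genes) and at least 1 IgG peak in 2 (6.76% of all genes). Peaks in the gene body itself were found in 6 genes for SBNO1, 7 for TAF4 and 0 for IgG, where 33.7%, 35.9% and 2.23% of all genes had one. No gene of the 10 had a peak in its gene body away from its promoters. RELA lay in a region dense in genes and peaks, where 63.3% of 90 other genes within 1 Mb had an SBNO1 promoter peak and 17.8% had an IgG one.

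SBNO1 and TAF4 overlapped by at least 1 bp at 17 of the 25 SBNO1 peaks (68.0%, 46.5% to 85.1%), against 59.7% of the whole SBNO1 list, and at 17 of the 22 TAF4 peaks (77.3%, 54.6% to 92.2%), against 75.2% of the TAF4 list. Both intervals included the share of the list. All 7 SBNO1 promoter peaks of the 10 genes overlapped a TAF4 peak, as 83.8% of all SBNO1 peaks within 1 kb of a TSS did. The 8 SBNO1 peaks without TAF4 were spread over NFKB1, NFKB2, RELA, BIRC3 and TRAF1. The 5 TAF4 peaks without SBNO1 lay at RELB, NFKBIA, NFKBIE and CYLD. Centres of overlapping promoter peaks were closest at RELA (0 bp), NFKBIA (1 bp) and RELB (5 bp) and farthest apart at the downstream promoter of NFKB2 (228 bp).

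**Figure D4:**
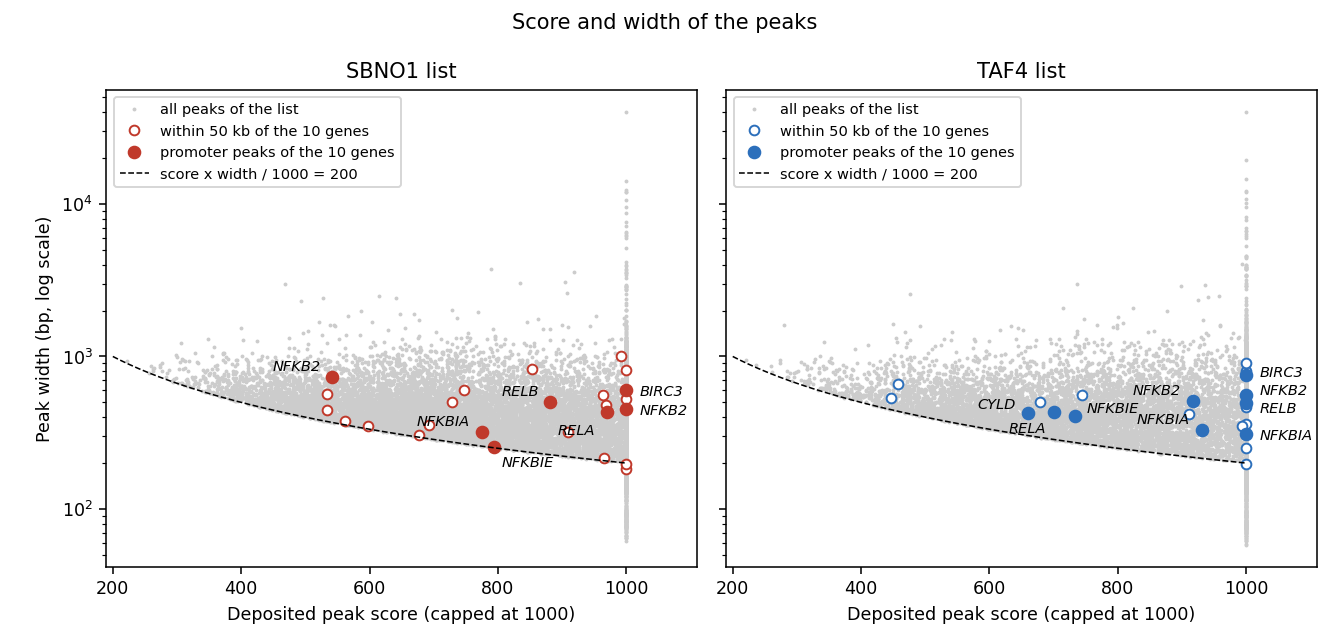
Peak width (y axis, bp, log scale) against the deposited score (x axis, capped at 1000) for the SBNO1 and TAF4 lists, with promoter peaks of the 10 genes as filled and flanking peaks as open circles and the line where score times width over 1000 is 200. The NFKBIE SBNO1 peak lies on this line, and the NFKB2 and BIRC3 peaks lie well above it.

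The consensus of NF-kB was then counted over the whole peaks and in 200 bp at their centres. In the 200 bp windows it was found in 6 of the 25 SBNO1 peaks (24.0%, 9.36% to 45.1%) and in 7 of the 22 TAF4 peaks (31.8%, 13.9% to 54.9%), against 4.16% and 4.49% of the whole lists, 2.75% of IgG peaks and 3.95% of all protein-coding TSS. Restricted to peaks within 1 kb of a TSS, the shares were 27.8% of 18 SBNO1 peaks and 36.8% of 19 TAF4 peaks, against 4.38% and 4.47% in the lists. Both intervals lay above the share of the lists, but overlapping SBNO1 and TAF4 peaks read the same bases and are not independent. By gene, 5 of the 7 genes with a promoter peak (71.4%, 29.0% to 96.3%) had a match in one, namely NFKB2, NFKBIA, NFKBIE, BIRC3 and CYLD, whereas 11.9% of the 6887 genes with a promoter peak did. Over all peaks of the 10 windows there were 17 separate places with a match, 12 of them in promoter peaks of the 10 genes. Several of these genes are textbook targets of NF-kB, so matches in their promoters are no surprise, and the shares are no measure of what SBNO1 or TAF4 prefer.

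Other sequence elements were counted in the same way. AP-1 matches were found in 24.0% of the SBNO1 peaks (9.36% to 45.1%), against 34.7% of the list, and in 3 of the 7 SBNO1 peaks away from TSS (42.9%, 9.9% to 81.6%), against 45.6%. The KLF/SP consensus was present in 14 of the 25 SBNO1 peaks (56.0%, 34.9% to 75.6%), against 21.7% of the list, and in 12 of the 18 SBNO1 peaks near a TSS (66.7%, 41.0% to 86.7%), against 53.4% in the list. The ETS consensus CCGGAA was found in 5 of these 18 (27.8%, 9.69% to 53.5%), against 1200 of 4791 in the list, and the NF-Y consensus CCAAT in 2 (11.1%, 1.38% to 34.7%), against 32.7%. The TATA consensus TATAAA was in 0 of the 25 SBNO1 peaks (up to 13.7%) and in 1 of the 22 TAF4 peaks (4.55%, 0.115% to 22.8%), against 7.49% and 5.91%. Each of these intervals included the share of the list, except that of KLF/SP over all 25 peaks. At all protein-coding TSS the shares in windows of 200 bp were 3.73% for AP-1, 43.5% for KLF/SP, 15.5% for ETS, 23.1% for NF-Y and 5.71% for TATA.

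**Figure D5:**
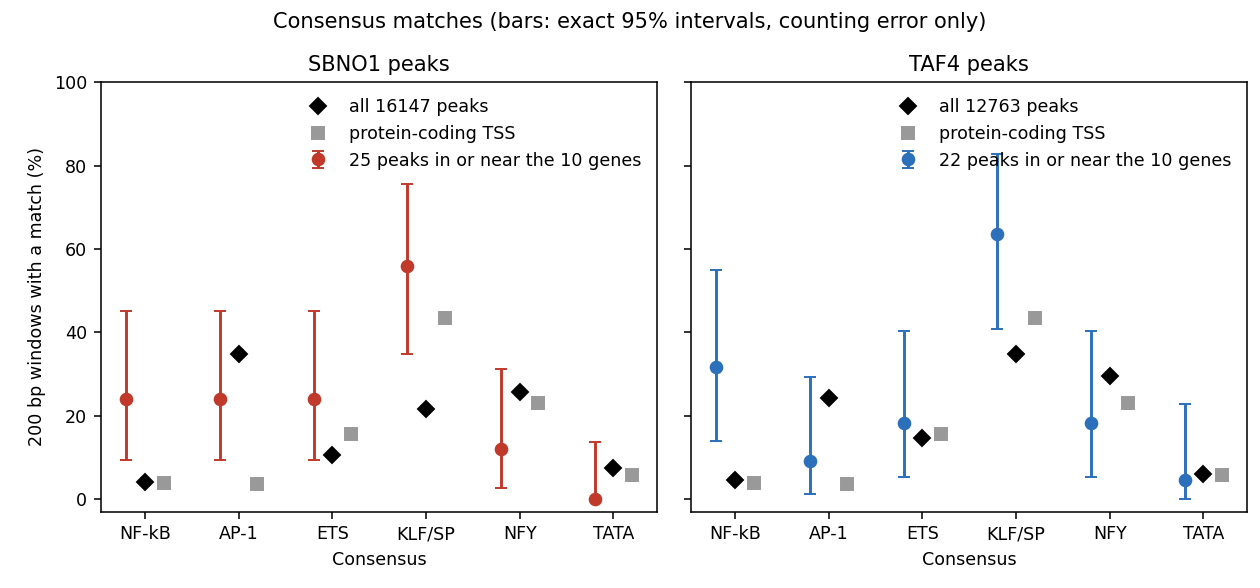
Share of 200 bp windows with a consensus match (percent, y axis) for 6 consensus sequences (x axis) in the 25 SBNO1 and 22 TAF4 peaks of the 10 gene windows (circles with exact 95% intervals), in the whole lists (diamonds) and at protein-coding TSS (squares). The NF-kB share is 24.0% and 31.8% against 4.16% and 4.49% in the lists.

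To place the 10 genes within their pathway, 69 other genes of NF-kB signalling were grouped by role. SBNO1 had a promoter peak at 31 of them (44.9%, 32.9% to 57.4%), against 25.7% of all genes. TAF4 had one at 41 (59.4%, 46.9% to 71.1%), against 31.9%. Both were present at 29 (42.0%, against 22.6% of all genes) and neither at 26 (37.7%, against 65.0%). SBNO1 without TAF4 was found at 2 (2.9%, against 3.08%) and TAF4 without SBNO1 at 12 (17.4%, against 9.29%). IgG had a peak at 1, ITCH (1.45%, against 1.41%). The share of the 10 genes lay above the list's interval for SBNO1 (60.0%) and inside it for TAF4 (70.0%), while their own intervals included both shares of the list. Of the 5 other Rel and I-kappa-B genes, NFKBIB, NFKBIZ and BCL3 had both peaks, with SBNO1 scores of 855, 948 and 982 and TAF4 scores of 1000, 1000 and 792, while REL and NFKBID had neither. Both groups of Rel and I-kappa-B genes thus held bound and unbound members.

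Of 22 receptors and adaptors 8 had SBNO1 (36.4%, 17.2% to 59.3%), against 25.7% of all genes. TAF4 was found at 11 of the 22 (interval 28.2% to 71.8%), against 31.9% of all genes. Both intervals included the share of all genes. All 8 genes with SBNO1 also had TAF4, as did 88.0% of all genes with an SBNO1 promoter peak. LTBR, a receptor of the non-canonical pathway, and FADD, a death-domain adaptor, had scores of 1000 in both lists, although the LTBR SBNO1 peak was only 217 bp wide. BIRC2, the ligase gene next to BIRC3, followed with 909 for SBNO1 and 457 for TAF4. Of 13 kinases and ubiquitin ligases that activate the pathway 7 had SBNO1 (53.8%, against 25.7% of all genes). TAF4 was found at 9 (69.2%, against 31.9%). Only MAP3K7 and TAB2 had neither. SBNO1 without TAF4 was found here, at IKBKB and TBK1, both encoding kinases. Over all 69 genes the share with SBNO1 alone was close to that of all genes. An SBNO1 score of 1000 was shared by TAB3, IKBKG, IKBKE and CHUK, and the first 3, with the wider peaks, had TAF4 scores of 626, 1000 and 411. CHUK, which encodes a subunit of the I-kappa-B kinase, had an SBNO1 peak of 200 bp and a TAF4 score of 1000. At IKBKE the SBNO1 peak (206472644-206472872) and the TAF4 peak (206469933-206470490) did not overlap, and IKBKG has a near-identical copy nearby, so its 3 peaks in each list are uncertain.

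Of 14 genes of feedback and deubiquitination 6 had SBNO1 (42.9%, against 25.7% of all genes) and 9 had TAF4 (64.3%, against 31.9%). TNIP1, which encodes a binding partner of the TNFAIP3 protein, had 5 SBNO1 and 7 TAF4 promoter peaks, up to a score of 1000 in both, while TNFAIP3 had none. TNIP1 and the target gene IRF1 lie on chromosome 5, where 40.4% of genes had an SBNO1 and 43.9% a TAF4 promoter peak. These were the highest shares of any chromosome, against 20.3% and 28.1% on chromosome 6, which holds TNFAIP3. The part of the chromosomes in this contrast was not tested. ITCH, a ubiquitin ligase gene, had scores of 1000 for SBNO1 and TAF4, and both peaks overlapped the IgG peak (34363096-34363322, score 906). TAX1BP1, which encodes a further partner, had 2 peaks in each list with SBNO1 scores up to 869. Of 15 target genes 7 had SBNO1 (46.7%) and 9 had TAF4 (60.0%), against 25.7% and 31.9% of all genes. They were led by PLAU, GADD45B and IRF1 with scores of 1000 in both lists, while VCAM1, BCL2L1, BCL2A1, MMP9, TNFRSF9 and BCL2 had neither. At IRF1 the peaks with the highest scores (132496301-132496526 for SBNO1 and 132490629-132491078 for TAF4) lay apart.

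The genes most like RELA and BIRC3, the fullest windows, were sought over 6 counts per gene, the peaks of each list at promoters and in the rest of the window. For RELA 9 genes over 1 Mb away had the same counts, the first by name being ACP2, ERN1 and GOLPH3L. For BIRC3 there were 11, the first being ANKRD33B, MRPL38 and NR1H3. The counts therefore did not single out these genes.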

How the data were processed

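ChIP-seq libraries of HuCCT1 cells, 1 each for SBNO1, TAF4 and IgG, had been made from pooled biological replicates after formaldehyde crosslinking, with an enzymatic chromatin kit per the labels. The study's methods name ktrim, bowtie2, the build GRCh38.p14 and normR for peak calling, whereas the submitters' processing notes name Bowtie2 2.5.4 and Genrich 0.6.1. The deposited score has the lower limit on score times width that Genrich sets on the area of a peak, and all peaks fell within GRCh38. The call threshold, the handling of duplicates and the use of IgG in calling are not given in the sources used here. The authors deposited 3 peak lists with position and a score capped at 1000, which was used only within a list. No peaks were filtered.

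TSS were taken from GENCODE 44, 78567 sites of protein-coding transcripts of 19689 genes. A promoter peak had its nearest edge within 1 kb of a TSS and counted for every gene in reach. Windows were the gene body plus 50 kb on either side. Overlap meant 1 bp or more. Features were read at the peak centre, and intergenic means outside protein-coding genes. Coordinates are 1-based. Consensus sequences were matched exactly on both strands. RefSeq promoters matched 8 of the 10 genes by symbol, all but RELB and NFKBIE. No test across samples was possible with 1 library per antibody. Python 3.11.15, numpy 2.4.6, pandas 2.3.3, scipy 1.17.1, pysam 0.24.0 and matplotlib 3.10.9 were used, and the functions were tested on simulated data.

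The 10 genes, the pathway list of 69 genes and the marker lists were chosen with earlier results of these data known. All 10 genes are named; of the pathway list up to 3 genes per role with the highest-scoring SBNO1 promoter peak are given with values (ties by width), and in each window the peaks of highest score, those with an NF-kB match and those of IgG are described. Further flanking peaks, CHUK, LTBR's width and TAX1BP1's peak counts were added after their values were seen. Alternatives were other TSS sets, distances, assignment to the nearest TSS, score filters, removal of peaks that overlap IgG, other windows, a reciprocal overlap and matches over the whole peak.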

Additional observations from a re-analysis of the deposited data

How the results depend on the processing

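Each promoter count of the 10 genes was the same with TSS of all transcripts, 1 TSS per gene, a distance of 3 kb, assignment to the nearest TSS or removal of peaks that overlap IgG. The SBNO1 share of all genes changed, to 27.1%, 23.3%, 28.4%, 21.8% and 24.6% in that order, from 25.7%. The interval for 6 of 10 genes, which begins at 26.2%, thus included the share at 27.1% and at 28.4%. Of 59 alternative values 45 stayed near the reported one and 14 moved. Near was a wide bound, under which a fall from 6 to 4 genes for SBNO1 or from 7 to 5 for TAF4 still counted. The IgG promoter count of 0 also counted as near in each setting, although filters that only remove peaks could not raise it. With peaks at or above the median score of their list, SBNO1 was found at 4 of the 10 genes, TAF4 at 4 and both at 3, against 13.1%, 19.6% and 9.21% of all genes, the pathway counts were 17 for SBNO1 and 24 for TAF4, the windows held 13 SBNO1, 12 TAF4 and 0 IgG peaks, and the overlap with TAF4 was 46.2% (6 of 13). With peaks whose score-width product was 300 or more, an alternative chosen after seeing the data, SBNO1 was called at 4 genes (NFKB2, RELA, RELB and BIRC3), TAF4 at 5 and both at 4, against 14.6%, 21.1% and 12.2% of all genes, while NFKBIE and CYLD were no longer called. The pathway counts were then 13 for SBNO1 and 24 for TAF4, and the windows held 14 SBNO1 peaks and 1 IgG peak. For a peak at the cap the product is only a lower limit, and this filter dropped every capped peak narrower than 300 bp. The lower counts therefore do not show that the dropped peaks were weak. Flanks of 100 kb gave 34 TAF4 peaks and flanks of 25 kb gave 1 IgG peak. Because the score filters drop wide or narrow peaks by construction, they removed different peaks. For both proteins with the median filter, the exact interval for 3 of 10 begins at 6.67%, below the 9.21% of all genes. No interval was computed for the other filtered counts, so the comparison of intervals with all genes covers the unfiltered lists only. No paired analysis was possible because there was 1 library per antibody and the labels carry no replicate numbers. The depth of the libraries is unknown, so a missing peak cannot be told apart from a weak one.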
